A study of Homo sapiens with 36 samples.

Results

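MDA231 is a human breast carcinoma line of mesenchymal character that invades and metastasises in animal models. The data described here are the 6 arrays of this line in a series of 36, namely 3 of the PS fraction (pseudopods) and 3 of the CB fraction (cell bodies), chosen by their titles and not by any measured value. Cells had been plated on porous filters in RPMI-1640 culture and left for 24 h, after which protrusions on the lower side and cell bodies on the upper side were scraped off apart. The labels name no drug, transgene or genetic change in either fraction, and each array was made from 100 ng of RNA amplified in 2 rounds with oligo(dT) priming. The same fractions of U87 and U251 (glioblastoma), HT1080 (fibrosarcoma), DU145 (prostate carcinoma) and MDA435 (deposited as a cancer line, its origin long disputed) fill the other 30 arrays. Nothing in the labels says that replicates were separate cultures, so p-values measure the spread between arrays, which may be technical. That spread was pooled over the 12 groups, and the residual SD was 0.408 in MDA231 pseudopods and 0.412 in MDA231 cell bodies against 0.22 to 0.427 in the groups of other lines, so the pooled spread is smaller than that of MDA231 itself.

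A pseudopod is an actin-driven protrusion at the front of a moving cell. Messenger RNAs are not spread evenly between such a protrusion and the cell body. Messages for secreted and membrane proteins are translated on the endoplasmic reticulum (ER), which in most cells surrounds the nucleus, whereas some messages, such as that of the small GTPase RAB13, are carried into protrusions. Unspliced and nuclear RNAs stay with the nucleus in the cell body. The comparison asks which RNAs are over- or under-represented in the protrusions of this line relative to its cell bodies.

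Values are scaled array intensities, and a change is the difference of log2(intensity + 16) between pseudopods and cell bodies, which understates the change of dim genes. Each array had been scaled to 1 common mean, so every change is relative to the rest of that array. How much of an RNA a fraction holds in all cannot be read from it. Of 15399 genes tested, 181 were higher in pseudopods (1.18%) and 754 were lower (4.9%) at an adjusted p under 0.05 by limma, and only 7 of the rises but 304 of the falls reached 2-fold. The 3 pseudopod arrays lay entirely above the 3 cell body arrays for 1403 genes (9.11%) and entirely below them for 1838 (11.9%). Rises made up 19.4% of the calls on the deposited scale and 59.4% (533 of them) after setting all array medians equal, which adds 0.164 to every change, so shifts smaller than this are not given a direction. Median intensity was 20.4, 22.1 and 27.2 in pseudopods against 25.6, 30.6 and 27.5 in cell bodies (exact permutation test, two-sided, p = 0.2, where 0.1 is the smallest p that 3 against 3 arrays allow). The 99th percentile was 2667, 2951 and 2657 in pseudopods against 2248, 2477 and 2522 in cell bodies (exact permutation test, two-sided, p = 0.1).

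**Figure D1:**
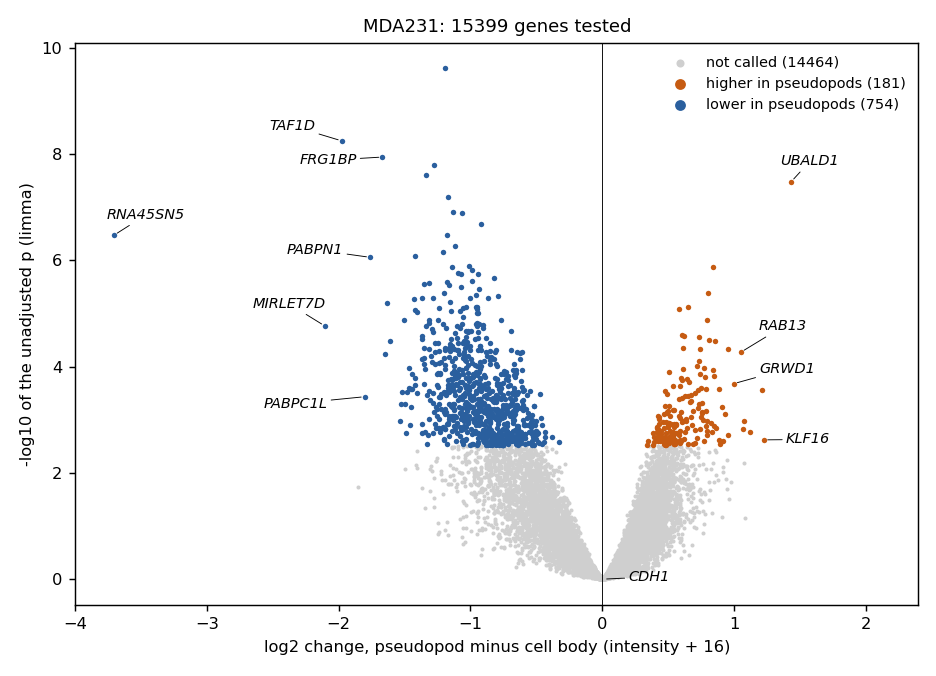
Each point is a gene, with the log2 change of pseudopods over cell bodies on the horizontal axis and -log10 of the unadjusted limma p on the vertical axis, for 3 arrays per fraction. The 754 called falls (blue) reach further from 0 than the 181 called rises (orange), and RNA45SN5 lies farthest out at -3.70.

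Array quality bears on all that follows. The arrays labelled pseudopod replicate 3 and cell body replicate 2 stood apart from the other 4 and resembled each other across the fraction boundary. Pseudopod replicate 3 correlated best with cell body replicate 2 (r = 0.983 over the tested genes) and less with its own group (r = 0.950 at most), whereas each of the other 4 arrays correlated best with an array of its own fraction. The first principal component of the 6 arrays (55.9% of the variance) set these 2 arrays against the other 4. The second (26.4%) set pseudopods against cell bodies, with all pseudopod arrays positive and all cell body arrays negative.

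The genes behind the first component include epithelial junction genes. CDH1, which encodes E-cadherin, read 4.5, 13.7 and 1299.2 in pseudopod replicates 1 to 3 and 8.2, 1777.5 and 2.2 in cell body replicates 1 to 3. EPCAM, an epithelial adhesion molecule, read 362.0, 318.2 and 3019.3 in pseudopods and 617.9, 3335.9 and 614.5 in cell bodies. Both are high in the same pair of arrays, 1 from each fraction, so that the fractions overlap. In all, 351 genes were at least 2-fold higher in both arrays than in each of the other 4, and 90 were at least 2-fold lower. Choosing them so puts 1 extreme array in each fraction, so the 0 calls among them say nothing of the fractions.

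The genes named next were chosen after their values were seen. CXCL5, a neutrophil chemokine, read 5.4, 7.4 and 1891.1 in pseudopods and 7.4, 2093 and 9.6 in cell bodies, and the tight junction gene CLDN2 and the drug efflux pump ABCB1 had the same pattern. Of 11 tested genes lying between FOCAD and CDKN2B on chromosome 9, 3 (FOCAD, KLHL9 and MTAP) exceeded 100 in both of these arrays and stayed below 25 in the other 4. MTAP, an enzyme of methionine salvage, read 3.3, 2.8 and 261 in pseudopods and 2.8, 199.9 and 3.1 in cell bodies. The ectonucleotidase gene ENPP1 went the other way, with 1392.2, 1150.9 and 260.5 in pseudopods and 2346.2, 375.1 and 2194.7 in cell bodies. Among the arrays of other lines, both arrays were nearest to MDA435 pseudopod replicate 1 (r = 0.938 and 0.926), whereas the other 4 MDA231 arrays reached 0.878 to 0.892 with DU145 or HT1080 arrays. The MDA435 arrays themselves differed widely in some of these genes. Over both fractions CDH1 ranged there from 32.8 to 2463, CLDN2 from 43 to 1287.1 and ABCB1 from 20.1 to 1259.1. MTAP, from 283.8 to 771.9, was expressed in all of them. MDA231 is known for lacking E-cadherin and for a deletion on the short arm of chromosome 9 that takes in MTAP, so these 2 arrays go against those traits of the line they are labelled with. CDKN2A, of the same region, does not share the pattern, with 23.3, 13.8 and 25.3 in pseudopods and 42.6, 23.4 and 44.9 in cell bodies. What sets them apart was not tested.

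Several other markers of the line were high in all 6 arrays. Vimentin (VIM) ranged from 2776 to 3932.3, the hyaluronan receptor CD44 from 2673.1 to 3164.4, the caveolar coat protein CAV1 from 2267 to 3715.2 and the receptor kinase AXL from 1133.4 to 2486. The oestrogen receptor ESR1 stayed between 9.4 and 26 and the progesterone receptor PGR between 9.1 and 19.2, while ERBB2 read 81.8 to 122.1. High vimentin and CD44 with little oestrogen receptor are what is known of MDA231, and the 2 arrays that stand apart share them. Levels of these markers in the other lines were not compared, so they do not identify the line of an array.

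**Figure D2:**
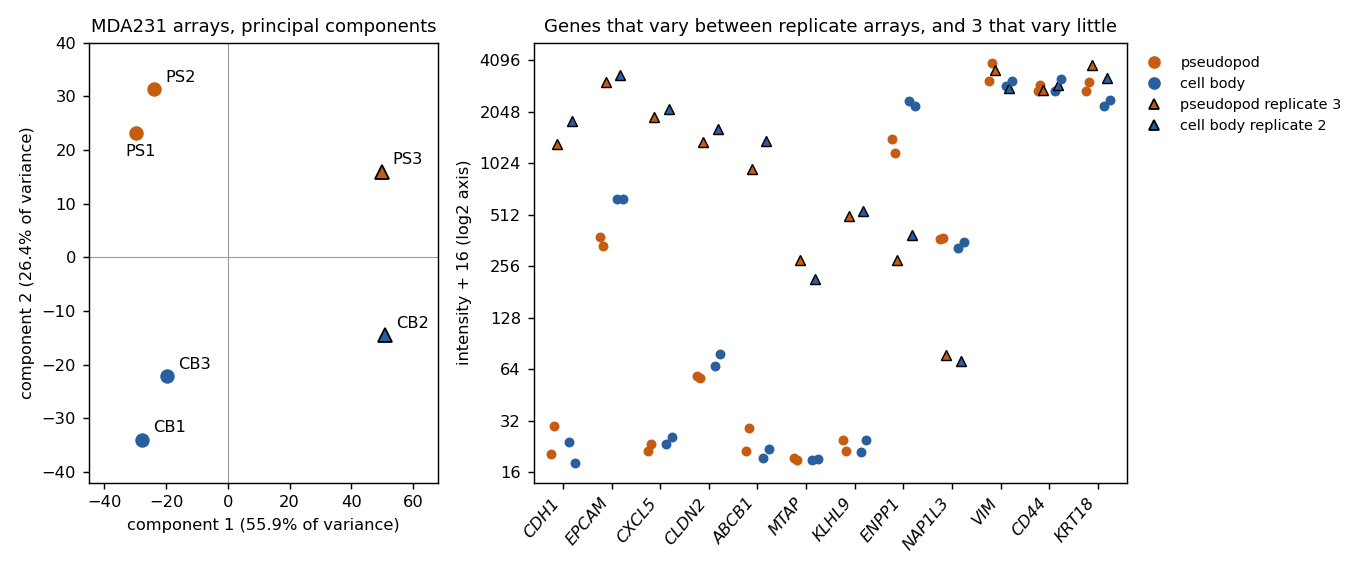
The left plot places the 6 arrays on their first 2 principal components, and the right plot gives intensity + 16 on a log2 axis for each array, pseudopods in orange and cell bodies in blue. Pseudopod replicate 3 and cell body replicate 2 (outlined triangles) share high CDH1, EPCAM, CXCL5, CLDN2, ABCB1, MTAP and KLHL9 and low ENPP1 and NAP1L3, while VIM, CD44 and KRT18 are high in all arrays.

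Because 1 of the 2 arrays fell in each fraction, the fraction difference could be read within each set. Of the 181 called rises, 180 had the same sign in the 4 other arrays and in the difference between these 2, and so had 752 of the 754 falls, but these genes were called on the same 6 arrays. Over all genes tested, 71.5% had 1 sign in both and the changes correlated at r = 0.565. With the 2 arrays left out, 182 genes were called higher and 824 lower, of which 104 and 643 were among the original calls. Leaving out single arrays moved the counts far more, down to 36 higher and 211 lower without pseudopod replicate 2 and up to 385 higher without pseudopod replicate 3 and 975 lower without cell body replicate 2. When the 6 MDA231 arrays were fitted alone, limma called 0 genes after adjustment, with 635 higher and 1533 lower at an unadjusted p under 0.05. Of the 111 called genes named by the rules below, 97 were also called without the 2 arrays, and 27 in each of the 6 fits that left out 1 array. The choice of probe set mattered too, since 17 of the 81 that keep a value without shared probe sets (those that may read more than 1 gene), and 24 of 109 with a mean over all probe sets, lost their call or turned. Without shared probe sets these were PABPC1L, RRBP1, SRPRB, MAN2A2, PLAUR, INSR, ERAP1, ATP6V0A2, IDI1, TPM4, SPTBN1, DST, DYNLRB1, EIF4EBP2, MRPL39, LSM5 and CDH11. With the mean they were IDI1, TPM4, DYNLRB1, EIF4EBP2, MRPL39, LSM5, KLF16, TRIM52-AS1, NBDY, VAV2, AHNAK, B4GAT1, TNC, FBN1, SEMA3C, NECTIN2, SQLE, LMAN2, PAK4, MAPRE2, PSME3, SF3B2, GRB2 and HSF1.

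The largest falls in MDA231 pseudopods include nuclear and nucleolar RNAs. The probe set annotated to RNA45SN5, the precursor of ribosomal RNA that is made in the nucleolus, read 15, 61.9 and 36.5 in pseudopods and 759.6, 356.0 and 955.5 in cell bodies. Every pseudopod array lay far below every cell body array, and the change was -3.70 ± 0.56 (SE, limma, adjusted p = 0.000428). TAF1D, a subunit of the RNA polymerase I factor SL1 whose introns carry small nucleolar RNAs, read 89.2, 127.3 and 185.0 in pseudopods and 491.8, 589.2 and 586.1 in cell bodies (change -1.98 ± 0.24, adjusted p = 4.33e-05). Of 12 tested RNAs listed as nuclear-retained or as hosts of small nucleolar RNAs, 3 fell (25%, against 4.9% of all genes tested) and 0 rose. Beside RNA45SN5 these were SNORA21 and FTX. The probe set annotated to SNORA21, a guide for pseudouridylation of ribosomal RNA, read 21, 38.4 and 27.3 against 59.6, 101.0 and 136.1 in cell bodies. With oligo(dT) priming these probe sets may read longer transcripts with poly(A) tails. Whether RNA45SN5 and SNORA21 themselves were read was not tested. FTX, a long noncoding RNA of the X inactivation centre, read 30.8, 30.1 and 33.7 in pseudopods and 93.3, 69.1 and 105.2 in cell bodies (change -1.13 ± 0.16, adjusted p = 0.000221). SNORA21 had an adjusted p of 0.0134, which rose to 0.0563 without the 2 arrays that stand apart.

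MALAT1, a long noncoding RNA of nuclear speckles, read 712.6, 2016.2 and 2736.0 in pseudopods and 2522.4, 2863.7 and 4041.8 in cell bodies. Its fractions overlapped and the change of -0.95 ± 0.34 missed the threshold (adjusted p = 0.0949), although it passed without the 2 arrays (adjusted p = 0.0284). CLK1, a kinase of splicing factors whose message is largely held in the nucleus, fell by 0.68 (adjusted p = 0.0243), with 334.2, 250.1 and 269.5 in pseudopods and 553.2, 383.1 and 462.3 in cell bodies. It was the 1 fall among 49 splicing genes, of which 5 rose, and it lost its call in 3 of 6 fits without 1 array (adjusted p up to 0.138, without cell body replicate 1). Among biotypes of the RefSeq gene table, 30 of 1263 long noncoding RNAs tested fell and 3 rose, against 708 and 177 of 13795 protein-coding genes.

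The probe set annotated to MIRLET7D gave the next largest fall. MIRLET7D encodes let-7d, a member of the let-7 family of microRNAs that repress RAS, MYC and HMGA2 messages and act against growth. The array primes on poly(A) tails and so reads a longer transcript of that locus, not the mature strands, which are shown because the seed (bases 2 to 8, in capitals) sets the targets of the microRNA. Both strands are from RefSeq on GRCh38.p14, plus strand of chromosome 9, at chr9:94178841-94178862 for the 5p strand and chr9:94178895-94178916 for the 3p strand.
hsa-let-7d-5p: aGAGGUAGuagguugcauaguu
hsa-let-7d-3p: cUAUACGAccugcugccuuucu
The MIRLET7D transcript read 15, 14.8 and 25.1 in pseudopods and 111.5, 165.8 and 119.1 in cell bodies, with no overlap. The change was -2.11 ± 0.41 (adjusted p = 0.00369) and was alike in the 4 other arrays (-2.09) and in the 2 that stand apart (-2.15).

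The remaining large falls mix RNA-binding proteins, noncoding transcripts and membrane proteins. PABPN1, the nuclear poly(A)-binding protein, read 70.2, 81.7 and 135.6 in pseudopods and 323.3, 389.3 and 346.1 in cell bodies (change -1.76 ± 0.28, adjusted p = 0.000842). PABPC1L, a relative of the cytoplasmic poly(A)-binding protein known from oocytes, read 65.7, 57.5 and 49.1 against 339.2, 179.3 and 222.8 in cell bodies. The transcribed pseudogene FRG1BP read 14.6, 18.3 and 17.5 in pseudopods and 76.4, 86.7 and 103.0 in cell bodies, a change of -1.67 ± 0.21 (adjusted p = 5.83e-05) with little spread in either fraction. SPRY4-IT1, a long noncoding RNA from an intron of SPRY4, read 40.4, 62.1 and 11.5 in pseudopods and 202.7, 97.5 and 135.3 in cell bodies. CMKLR2, a chemerin receptor, fell by 1.63, with 45.6, 39.2 and 30.7 in pseudopods and 191.4, 74.7 and 235.7 in cell bodies. PABPC1L passed in 4 of 6 fits without 1 array (adjusted p up to 0.0892, without cell body replicate 1) and had a change of -0.31 (adjusted p = 0.246) without shared probe sets, and the other 4 passed in all 6.

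**Figure D3:**
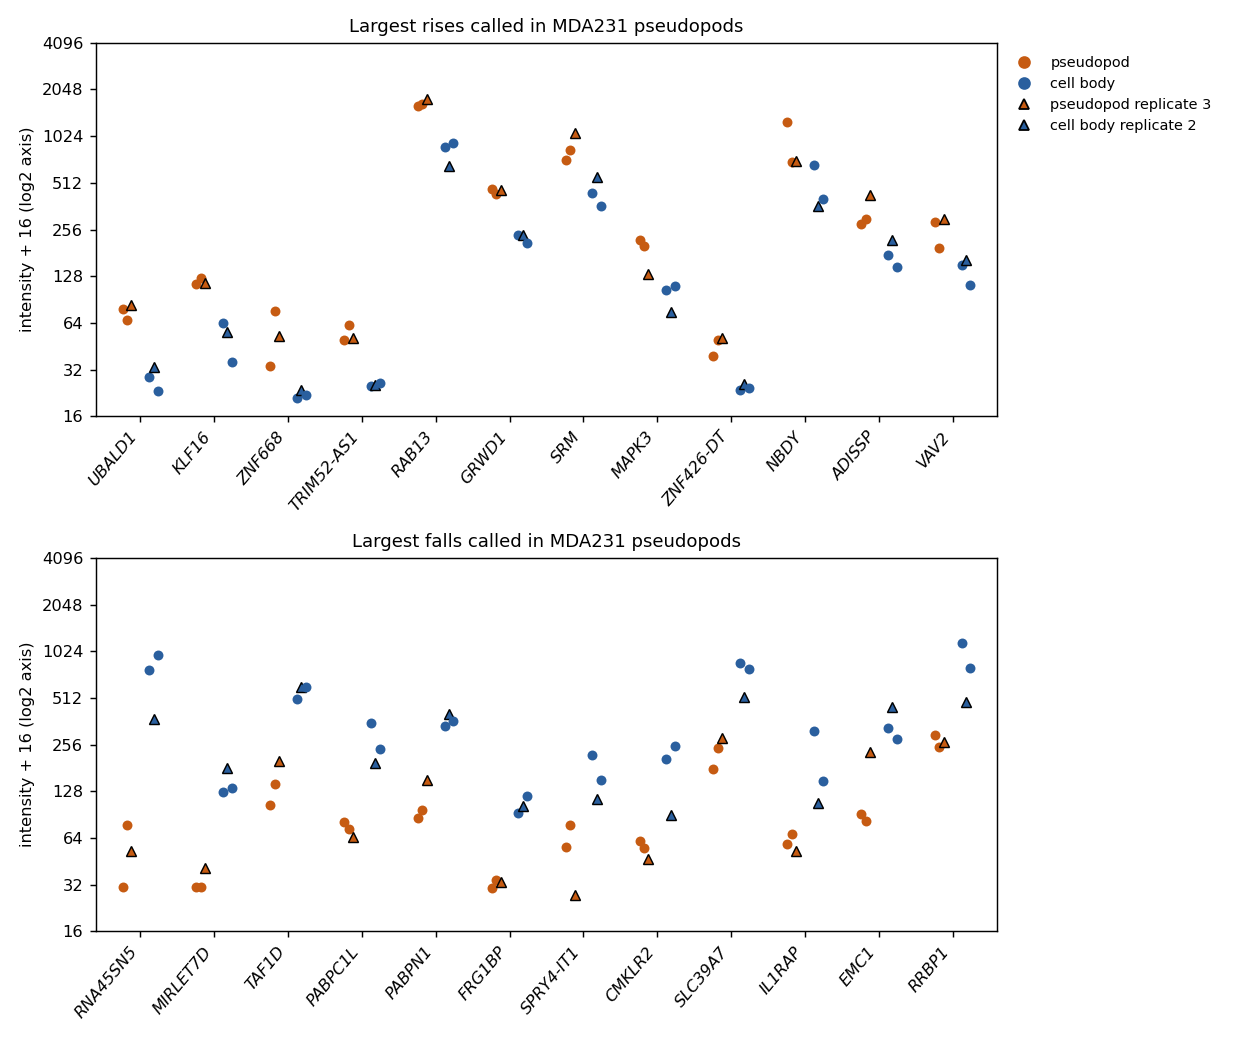
Intensity + 16 on a log2 axis for every MDA231 array, pseudopods (orange) left of cell bodies (blue) for each gene, with the 2 arrays that stand apart as outlined triangles. The 12 genes above have all pseudopod arrays above all cell body arrays, and the 12 below have them all beneath, farthest for RNA45SN5.

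Proteins of the secretory route held 110 of the 754 falls. Over 12 lists of ER, Golgi, lysosomal, cell surface and secreted proteins, 110 of 439 tested genes fell and 1 rose. The falls are 25.1%, against 4.9% of all genes tested, and 389 of the 439 changes were below 0. Their median change was -0.636, against 0.008 over all genes tested, with -0.792 in the 4 other arrays and -0.394 between the 2 that stand apart. The lists share members, and their calls moved with single arrays as the total did. With equal array medians, falls numbered 4 for ER chaperones, 6 for N-glycan genes, 3 for Golgi enzymes and 3 for translocon genes. On that scale 6 lysosomal genes, 7 solute carriers, 3 growth factor genes, 4 cytokine genes and 5 HLA class I genes fell.

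ER proteins that import, fold and glycosylate new polypeptides were among the lowest. Of 28 tested ER chaperones and disulfide isomerases 8 fell (28.6%, against 4.9% of all genes tested) and 0 rose. In 18 every pseudopod array lay below every cell body array, against 11.9% of all genes tested. Their median change was -0.794. SERPINH1, the collagen chaperone HSP47, read 282.0, 223.7 and 224.1 in pseudopods and 1010.2, 438.3 and 598.7 in cell bodies (change -1.35 ± 0.29, adjusted p = 0.00683). CCPG1, a receptor for autophagy of the ER, fell by 1.48, ERP44, which retains unfinished secretory proteins, by 1.15, and SEL1L, a scaffold of ER-associated degradation, by 1.20. The chief ER chaperone HSPA5 (BiP) read 1264.9, 1402.5 and 2130.4 in pseudopods and 2702.4, 2632.9 and 2741.3 in cell bodies, which did not overlap but missed the threshold (change -0.78 ± 0.33, adjusted p = 0.161). CALR, a lectin chaperone, was the 1 member above 0, at 0.19 ± 0.38. The number that fell ranged from 0 without cell body replicate 1 to 12 without pseudopod replicate 3.

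Several of these chaperones share the ER stress element, a promoter motif read by ATF6 and XBP1 with NF-Y. The letters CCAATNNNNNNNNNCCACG, on either strand, occur in the 250 bases before the gene start in 6 of 25 promoters of this list. Over all promoters of the RefSeq table the share is 0.0806% (22 of 27305), and 1 of 628 promoters of the genes that fell holds the motif. Stretches around it are shown for 3 members, because the element is a known feature of these chaperone genes, with the fixed letters of the motif (or of its reverse complement) in capitals, 5′ to 3′ on the gene's strand, from RefSeq on GRCh38.p14. They lie at chr9:125241371-125241429 (HSPA5, minus strand), chr12:103930196-103930254 (HSP90B1, plus strand) and chr19:12938364-12938422 (CALR, plus strand).
HSPA5: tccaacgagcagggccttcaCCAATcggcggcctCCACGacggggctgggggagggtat
HSP90B1: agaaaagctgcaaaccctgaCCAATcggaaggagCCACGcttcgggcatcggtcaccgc
CALR: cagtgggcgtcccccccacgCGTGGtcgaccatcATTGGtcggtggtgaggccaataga
None of these 3 passed the test, HSP90B1 (GRP94, the ER member of the HSP90 family) having a change of -0.89 ± 0.55 (adjusted p = 0.36), with 319.2, 522.5 and 913.8 in pseudopods and 949.2, 867.7 and 1226 in cell bodies.

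Genes of glycosylation were also lower. Of 32 tested genes of N-glycan assembly and transfer, 12 fell (37.5%, against 4.9% of all genes tested), 1 rose and the median stood at -0.772. ALG1, a mannosyltransferase of the lipid-linked precursor, fell by 1.37, with 55.5, 87.5 and 191.5 in pseudopods and 216.3, 440.9 and 233.7 in cell bodies. GANAB, the catalytic subunit of glucosidase II, fell by 1.23 and DOLK, the dolichol kinase, by 1.02. OST4, a very small subunit of oligosaccharyltransferase, was the exception and rose, with 1069.3, 927.5 and 902.1 in pseudopods and 674.1, 735.7 and 632.3 in cell bodies (change 0.49 ± 0.13, adjusted p = 0.0223). Among 36 Golgi glycosyltransferases 11 fell (30.6%) and 0 rose. The falls include GALNT7, which starts O-glycans, and MAN2A2, which trims N-glycans. B4GAT1, an enzyme of dystroglycan glycosylation, is a called fall that rests on the 4 other arrays, since the 2 that stand apart differed by only 0.01. The falls ranged from 2 without pseudopod replicate 2 to 17 without pseudopod replicate 3 for N-glycan genes, and from 1 without cell body replicate 1 to 14 without cell body replicate 2 for Golgi enzymes.

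Within 3 pathways, the membrane or luminal members held the calls and the cytosolic subunits held 0, a split that was drawn after the values were seen. The cytosolic groups hold only 6, 7 and 19 genes, so 0 calls lies near the shares over all genes tested (4.9% lower, 1.18% higher). Of 24 tested genes of the translocon and its targeting particle, 8 fell (33.3%). SEC61A1, the channel for nascent chains, read 466.7, 494.9 and 753.2 in pseudopods and 1320.1, 1120.1 and 1336.5 in cell bodies (change -1.15 ± 0.27, adjusted p = 0.0107), and SEC63, SRPRB and SSR4 also fell. The 6 subunits of the signal recognition particle, which is assembled in the cytosol, all had changes above 0, between 0.21 and 0.33, and 0 were called. SRP72 read 2502.8, 2997 and 2510.1 in pseudopods and 2097.6, 1997.6 and 2238.5 in cell bodies, without overlap. The calls in this list ranged from 1 without pseudopod replicate 1 to 10 without pseudopod replicate 3.

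Lysosomal genes repeated the pattern. Of 34 tested, 12 fell (35.3%, against 4.9% of all genes tested) and 0 rose, with a median of -0.678. LIPA, the acid lipase, read 580.5, 469.2 and 728.1 in pseudopods and 1504.7, 1173.5 and 1221.8 in cell bodies, and GUSB (beta-glucuronidase), SGSH (a sulfatase) and the membrane V0 subunit ATP6V0A2 of the proton pump also fell. The 7 V1 subunits, which form the cytosolic part of that pump, ranged from -0.11 to 0.29 and 0 were called. Of 42 genes of vesicle coats and cargo receptors 3 fell, a share near the 4.9% of all genes tested, namely MIA3, MIA2 and LMAN2, all membrane proteins that pass cargo to coats. The 20 membrane cargo receptors had a median of -0.575 and the 19 coat subunits one of 0.134, which is under the shift between scalings. The lysosomal falls ranged from 1 without pseudopod replicate 2 to 13 without pseudopod replicate 3, and the cargo falls from 1 without pseudopod replicate 2 to 7 without cell body replicate 2.

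RRBP1 and EMC1 are ER membrane proteins that stood among the 12 largest falls without overlap of arrays. RRBP1, a ribosome-binding protein of the rough ER, read 279.1, 231.4 and 249.8 in pseudopods and 1136.7, 464.6 and 787.1 in cell bodies (change -1.51 ± 0.29, adjusted p = 0.00336). EMC1, a subunit of the complex that inserts membrane proteins, read 75.1, 66.9 and 213.4 in pseudopods and 314.1, 428.9 and 261.5 in cell bodies. The fractions do not overlap in either gene, but for EMC1 the 4 other arrays (-1.80) carry more of the difference than the 2 that stand apart (-0.96), and its adjusted p was 0.104 without pseudopod replicate 2. RRBP1 rests on its probe set, since its change was -0.06 (adjusted p = 0.891) without shared probe sets.

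Among solute carriers, the transporters of small molecules, 16 of 44 tested fell and 0 rose, with a median of -0.819. That is the highest count of falls in any list used here. As a share it is 36.4%, against 4.9% of all genes tested and 37.5% of the N-glycan genes. SLC39A7, a zinc transporter of the ER and Golgi that the list includes, read 163.3, 228.3 and 266.2 in pseudopods and 841.9, 506.0 and 771.8 in cell bodies (change -1.61 ± 0.33, adjusted p = 0.00514). SLC5A3, which imports myo-inositol, SLC39A10, a zinc importer, and SLC2A3, a glucose transporter, changed by -1.47, -1.25 and -1.19. The count ranged from 4 without pseudopod replicate 2 to 19 without pseudopod replicate 3.

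Adhesion receptors, proteases and matrix genes, through which cells contact and remodel their surroundings, held falls and 0 rises. All 40 tested integrins, tetraspanins and other adhesion receptors had changes below 0, and 8 fell (20%, against 4.9% of all genes tested). The highest of the 40, -0.0023 for ITGB1, is too small to be given a direction. ITGAV, the alpha-v integrin, read 491.5, 332.6 and 684.0 in pseudopods and 1323.5, 1275.0 and 1154.3 in cell bodies (change -1.34 ± 0.30, adjusted p = 0.00879). ITGA2, the collagen-binding alpha-2 integrin, fell by 1.13 and SDC4, a heparan sulfate proteoglycan of adhesions, by 0.93. ITGB1, the beta-1 subunit, is an exception with 2964.8, 3274 and 2888.2 in pseudopods and 2796.8, 3050.5 and 3301.7 in cell bodies, which overlap (change 0.00 ± 0.17).

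Of 31 tested proteases and urokinase genes 7 fell (22.6%, against 4.9% of all genes tested) and 0 rose, with a median of -0.71. PLAU, the urokinase plasminogen activator, read 908.9, 838.7 and 1118.0 in pseudopods and 2009.4, 1854.0 and 1954.7 in cell bodies, a change of -1.02 ± 0.26 (adjusted p = 0.0198). Its receptor PLAUR read 784.8, 762.2 and 671.8 in pseudopods and 1792.0, 1190.1 and 1690.7 in cell bodies (change -1.04 ± 0.26, adjusted p = 0.0182), but its change was -0.60 (adjusted p = 0.178) without shared probe sets. ADAM17, the sheddase that releases TNF and EGF receptor ligands, fell by 1.02 and the cathepsin CTSL by 1.04. The interstitial collagenase MMP1 was among the brightest messages, with 2275.2, 2023 and 3054.3 in pseudopods and 3055.2, 3309.1 and 3391.6 in cell bodies, and was not called (adjusted p = 0.58). Of 47 extracellular matrix genes 5 fell (10.6%), with COL12A1 (collagen XII), TNC (tenascin C), LAMB2 (a laminin beta chain) and FBN1 (fibrillin) the largest.

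The falls ranged from 1 without pseudopod replicate 2 to 16 without cell body replicate 2 for adhesion receptors. They ranged from 1 without cell body replicate 3 to 13 without cell body replicate 2 for proteases, and from 0 without pseudopod replicate 2 to 13 without cell body replicate 2 for matrix genes. With equal array medians 3 adhesion receptors, 3 proteases and 1 matrix gene fell. The medians of these 3 lists stayed between -0.878 and -0.438 in all 6 of those fits.

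Receptors for growth factors and cytokines followed, again with falls and 0 rises. Among 50 growth factor receptors and ligands 9 fell (18%, against 4.9% of all genes tested). INSR, the insulin receptor, read 170.9, 157.2 and 98.3 in pseudopods and 449.6, 198.1 and 317.6 in cell bodies, and the semaphorin receptor PLXNB2, the secreted semaphorin SEMA3C and the TAM receptor MERTK fell by 1.28, 1.10 and 1.20. Among 47 cytokine genes 7 fell (14.9%). IL1RAP, the shared accessory chain of interleukin-1 receptors, read 42.2, 51.6 and 37.0 in pseudopods and 296.2, 91.7 and 132.9 in cell bodies (change -1.53 ± 0.39, adjusted p = 0.0183). TNFRSF11B, the decoy receptor osteoprotegerin, LIFR and IFNGR1 fell by 1.36, 1.33 and 1.32. The falls ranged from 0 to 16 for growth factor genes and from 1 to 11 for cytokine genes, in both cases lowest without pseudopod replicate 2 and highest without cell body replicate 2.

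Of 26 genes of HLA class I antigen presentation and its ligands 7 fell (26.9%, against 4.9% of all genes tested). Their number ranged from 2 without cell body replicate 1 to 9 without pseudopod replicate 3. CD274, which encodes the checkpoint ligand PD-L1, read 262.3, 296.9 and 201.2 in pseudopods and 524.0, 401.4 and 665.4 in cell bodies (change -1.01 ± 0.24, adjusted p = 0.0113). ERAP1, the peptidase that trims antigenic peptides in the ER, CD58, the ligand of CD2, and NECTIN2, an adhesion ligand of immune receptors, changed by -1.29, -1.20 and -1.13. The value for ERAP1 was 0.03 when probe sets that may read more than 1 gene were left out. CD14, a monocyte marker and 1 of 3 blood cell genes tested, fell by 0.91 (adjusted p = 0.00366), with 22.6, 22.9 and 24.4 in pseudopods and 71.1, 41.8 and 63.3 in cell bodies. Summed over the 3 blood genes, intensity ranged from 69.0 to 141.9 in pseudopods and from 144.7 to 194.7 in cell bodies, while PTPRC, the pan-leukocyte marker, stayed between 5.3 and 20.8. The part of other cells in these values was not tested.

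MDA231 sublines selected in mice have yielded sets of genes tied to metastasis to bone, lung and brain. Of 34 such genes tested here, 3 fell (8.82%, against 4.9% of all genes tested), 0 rose and the median was -0.414. CXCR4, the CXCL12 receptor tied to bone metastasis, read 339.9, 319.0 and 190.3 in pseudopods and 860.9, 344.6 and 822.5 in cell bodies (change -1.14 ± 0.31, adjusted p = 0.0237). TNC, a matrix protein of the lung metastatic niche, read 93.3, 83.2 and 126.0 in pseudopods and 463.9, 201.3 and 287.4 in cell bodies, a change of -1.45 ± 0.35 (adjusted p = 0.0131, or 0.0603 with a mean over probe sets). ANGPTL4, which loosens endothelial junctions, read 22.1, 21.2 and 22.2 against 142.9, 40.7 and 48.5 in cell bodies (change -1.14 ± 0.29, adjusted p = 0.0196). PTGS2 (cyclooxygenase 2) did not overlap either, with 168, 111.3 and 136.7 in pseudopods and 485.6, 271.6 and 354 in cell bodies, but missed the threshold (adjusted p = 0.0838). FSCN1, the actin bundler fascin, lay highest at 0.54 ± 0.37 (adjusted p = 0.424). The falls ranged from 0 without cell body replicate 1 to 6 without cell body replicate 2.

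The called rises were smaller than the called falls, with a median of 0.585 for rises and -0.933 for falls. UBALD1, a little studied gene with a UBA-like domain, had the largest, with 63.1, 50.7 and 67.1 in pseudopods and 12.6, 17.3 and 7.3 in cell bodies (change 1.43 ± 0.19, adjusted p = 8.46e-05). The 2 other probe sets of UBALD1, both dim, had changes of -0.192 and -0.05. RAB13, a small GTPase whose message is carried into protrusions of several cell types, read 1589.3, 1635.2 and 1767.0 in pseudopods and 853.5, 643.1 and 906.0 in cell bodies. Its arrays did not overlap, and the change was 1.05 ± 0.22 (adjusted p = 0.00577), with 0.86 in the 4 other arrays (adjusted p = 0.0524 when the 2 that stand apart were left out). GRWD1, a histone-binding factor of ribosome assembly, read 447.9, 419.7 and 445.8 in pseudopods and 220.2, 219.4 and 194.2 in cell bodies. SRM, spermidine synthase, read 699.7, 816.5 and 1062.4 against 422.0, 543.9 and 346.0 in cell bodies. UBALD1, RAB13, GRWD1 and SRM were called in each of the 6 fits without 1 array.

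The other 8 of the 12 largest rises without overlap of arrays were less firm. MAPK3, the kinase ERK1, read 203.5, 185.3 and 116.5 in pseudopods and 89.0, 59.8 and 93.9 in cell bodies (change 0.91 ± 0.28, adjusted p = 0.0446). VAV2, an exchange factor that activates small GTPases, read 269.6, 178.2 and 284.3 in pseudopods and 134.2, 147.0 and 97.0 in cell bodies, and ADISSP, which encodes a secreted signal of fat cells, rose by 0.88. KLF16, ZNF668, TRIM52-AS1, ZNF426-DT and NBDY, the last of which encodes a micropeptide of P-bodies, completed the set with changes between 0.89 and 1.23. In cell bodies ZNF668 read 5.1, 7.7 and 5.8, TRIM52-AS1 9.2, 9.6 and 10.3, and ZNF426-DT 7.6, 9.8 and 8.3. All of these lie under the pseudocount of 16, near the floor of the arrays. Each of these 8 lost its call in 2 to 5 of the 6 fits without 1 array, the highest adjusted p ranging from 0.0795 for ADISSP (without cell body replicate 3) to 0.241 for NBDY (without pseudopod replicate 1). For MAPK3, ZNF668, TRIM52-AS1 and ZNF426-DT it was reached without pseudopod replicate 2, and for KLF16 and VAV2 without cell body replicate 3.

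A set of 21 RNAs that earlier work in other cells placed in protrusions had a median change of 0.33. Only RAB13 rose among them and PLAUR fell. NET1, an exchange factor for RHOA, read 2846.2, 2387.6 and 1874.3 in pseudopods and 2022.2, 1291.1 and 1960.6 in cell bodies, which overlap (change 0.43 ± 0.24, adjusted p = 0.312). KIF1C, a kinesin that carries such RNAs, read 604.1, 443.1 and 615.4 in pseudopods and 323.9, 484.2 and 259.4 in cell bodies (adjusted p = 0.0522), and the values of RASSF3 overlapped as well (change 0.61, adjusted p = 0.114). The rises in this list ranged from 1 to 5, the most without cell body replicate 2.

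Cytoskeletal genes shifted by small amounts. Over 6 lists of focal adhesion, actin, small GTPase, microtubule and septin genes, 8 of 213 rose and 4 fell, with a median of 0.216. These are 3.76% and 1.88%, against 1.18% and 4.9% of all genes tested. In 44 all pseudopod arrays lay above all cell body arrays, against 9.11% of all genes tested, and in 7 below them, against 11.9%. The 99th percentile was higher in every pseudopod array than in any cell body array. Called rises were bright, with a median intensity of 478.9 against 148.4 for genes not called. Whether these shares differ from those of equally bright genes was not tested. PFN1, the actin monomer-binding protein profilin 1, read 2057.3, 2510.9 and 2219.9 in pseudopods and 1459.0, 1824.1 and 1473.3 in cell bodies (change 0.51 ± 0.14, adjusted p = 0.0237). ARPC1A, a subunit of the ARP2/3 complex that nucleates branched actin, rose by 0.50, and TPM4, a tropomyosin, by 0.90 although its arrays overlap. ARHGDIA, an inhibitor of GDP release from small GTPases, PAK4, a kinase downstream of CDC42, MAPRE2, a microtubule end-binding protein, and DYNLRB1, a dynein light chain, rose by 0.59, 0.56, 0.43 and 0.48. DYNLRB1 changed by only 0.05 (adjusted p = 0.824) with a mean over its probe sets. ACTB, beta-actin itself, read 3962.3, 5262.6 and 4834.6 in pseudopods and 3419.1, 3963.6 and 4128.4 in cell bodies and was not called (adjusted p = 0.395). Without pseudopod replicate 2 none of PFN1, ARPC1A, TPM4 and DYNLRB1 passed (adjusted p from 0.139 to 0.262).

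The 4 falls among cytoskeletal genes were of proteins that join the cytoskeleton to membranes or adhesions. AHNAK, a giant scaffold beneath the plasma membrane, read 977.0, 575.5 and 478.7 in pseudopods and 2365.0, 1037.6 and 1910.4 in cell bodies (change -1.35 ± 0.32, adjusted p = 0.0121). SPTBN1, a spectrin beta chain, fell by 1.15 and DST, the cross-linker dystonin, by 0.93. VCL, the adhesion protein vinculin, fell by 0.71, with 1460.7, 1195.5 and 1377.5 in pseudopods and 2451.8, 1955.7 and 2243.8 in cell bodies. AHNAK lost its call in 3 of 6 fits without 1 array (adjusted p up to 0.084, without cell body replicate 1) and VCL in 2 (adjusted p up to 0.0885, without pseudopod replicate 2), whereas SPTBN1 and DST kept theirs with any 1 array left out. Without shared probe sets SPTBN1 (adjusted p = 0.184) and DST (adjusted p = 0.0719) lost it, and AHNAK did with a mean over probe sets (-0.36, adjusted p = 0.144). S100A11, a calcium-binding protein of the cell cortex, read 2176.3, 1647.1 and 962.2 in pseudopods and 1640.0, 1094.8 and 722.6 in cell bodies and was not called (adjusted p = 0.347).

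Few genes of protein synthesis and energy metabolism passed the test. Over 6 lists of ribosomal proteins, translation factors, respiratory chain, mitochondrial ribosome, proteasome and splicing genes, 11 of 309 rose and 1 fell. These are 3.56% and 0.324%, against 1.18% and 4.9% of all genes tested. In 148 all pseudopod arrays lay above all cell body arrays, against 9.11% of all genes tested. Here too, equally bright genes were not compared. Of 51 cytosolic ribosomal protein genes 0 passed the test, and their median of 0.28 was 0.062 after quantile normalization and 0.445 with equal array medians. Translation factors had a median of 0.272, or 0.124 after quantile normalization, so the size of these values depends on the scaling. RPL11, with the largest change, read 2788.6, 2650.8 and 2583.4 in pseudopods and 1536.8, 2212.9 and 1808.6 in cell bodies (0.54 ± 0.20, adjusted p = 0.105). GAPDH, an enzyme of glycolysis, read 3068.5, 3975.4 and 3509.4 in pseudopods and 2694.1, 2967.2 and 3080.5 in cell bodies, which overlap (adjusted p = 0.508).

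The share of rises over all genes tested was 1.18%, to be set beside each count given next. Of 34 proteasome genes 3 rose. PSMC4, an ATPase of the regulatory particle, read 835.8, 814.5 and 770.7 in pseudopods and 503.5, 528.6 and 490.6 in cell bodies (change 0.65 ± 0.16, adjusted p = 0.0146), PSME3, an activator of the core particle, rose by 0.50 and SEM1, a small lid subunit, by 0.85. Of 49 splicing genes 5 rose, namely the SF3 complex members SF3A1 and SF3B2 and the LSM ring proteins LSM2, LSM4 and LSM5. EIF4EBP2, a repressor of cap-dependent translation, was the 1 rise among 42 translation factors, and MRPL34 and MRPL39 were the 2 among 66 mitochondrial ribosomal proteins. The sign of MRPL39 depends on the probe set, its change being -0.91 (adjusted p = 0.00402) when probe sets that may read more than 1 gene were left out. FOXM1, a driver of mitotic genes, was the 1 rise among 44 mitosis genes. The counts of rises fell to 0 without pseudopod replicate 2 for proteasome, splicing and mitosis genes, and reached 11 for mitochondrial ribosomal proteins without cell body replicate 2.

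Smaller lists add single genes. HSF1, the heat shock factor, rose by 0.80 among 18 heat shock genes, and GRB2, the adaptor that links receptors to RAS, by 0.46 beside MAPK3 among 26 genes of that pathway. IDI1, an isomerase of isoprenoid synthesis, rose by 0.59 while SQLE (squalene epoxidase) and SC5D (sterol desaturase), which sit in the ER membrane, fell by 1.16 and 1.24. P4HA2, a collagen prolyl hydroxylase of the ER, was the 1 fall among 34 hypoxia and glycolysis genes. The reading for IDI1 was -0.86 when shared probe sets were left out. Among 21 histone, 23 immediate early and 47 replication genes 0 were called. Of 7 tested mitochondrially encoded genes 0 were called, COX3 being lowest with 604.7, 768.3 and 979.6 in pseudopods and 1155.7, 1665.7 and 1268.1 in cell bodies (adjusted p = 0.114).

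**Figure D4:**
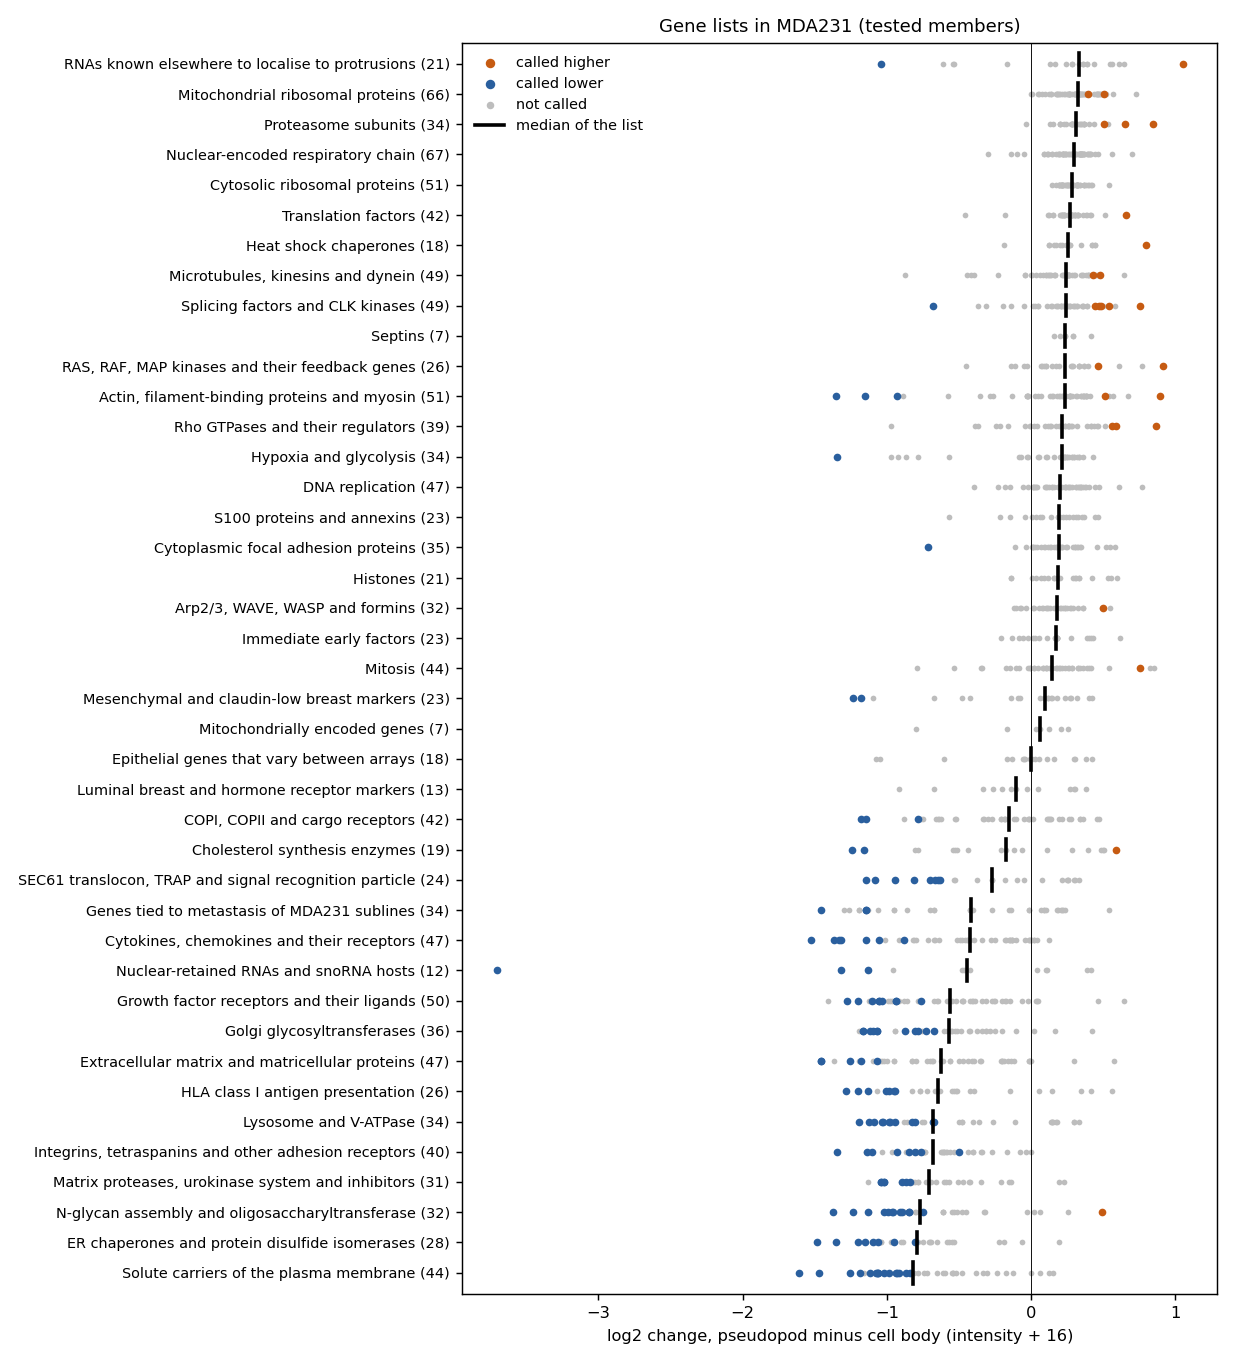
Each row is a gene list with at least 7 tested members (number in brackets), each point 1 member at its log2 change between MDA231 pseudopods and cell bodies, and the black bar the median. Called falls (blue) gather in lists of ER, Golgi, lysosomal and surface proteins, with the lowest median at -0.819 for solute carriers, while the median of coats and cargo receptors (-0.15) turns to 0.014 with equal array medians. Medians of ribosomal, mitochondrial and proteasome lists reach 0.322 on the deposited scale.

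Epithelial genes were listed because they vary between replicate arrays, so 0 calls among the 18 tested say nothing of the fractions. Their median change was -0.002, moving between -0.729 and 0.541 when single arrays were left out. CDH1 had a change of 0.01 ± 1.43 and EPCAM one of -0.60 ± 0.92, large standard errors that mark how far the arrays of a fraction differ. Summed over the 18 genes, intensity ranged from 8609 to 18020 in pseudopods and from 7154 to 17380 in cell bodies. The keratins KRT18 and KRT19, which the line expresses throughout, read 2695.6, 3023.1 and 3792.0 and 2997.8, 2521.7 and 1793.3 in pseudopods, against 2193.0, 3200.3 and 2364.9 and 2382.1, 1418.9 and 1798.5 in cell bodies.

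Of 23 mesenchymal markers 2 fell (8.7%, against 4.9% of all genes tested) and 0 rose. CDH11 (a mesenchymal cadherin) fell by 1.24 and FBN1 by 1.18, while VIM (adjusted p = 0.44) and CD44 (adjusted p = 0.9) were not called. Without pseudopod replicate 2 neither CDH11 nor FBN1 passed. Markers of other cells showed 0 calls among 6 melanocytic, 6 glial, 5 fibroblast and 13 luminal genes. The melanocytic markers SOX10 and S100B stayed between 1.3 and 29.5, the neural marker SOX2 between 9.6 and 19.2, and the fibroblast collagen COL3A1 at 13.8 or less. The summed intensity of the melanocytic list was 405.5 to 655.0 in pseudopods and 425.7 to 584.9 in cell bodies, most of it from MITF.

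Set against the other 5 lines, the MDA231 pattern was mostly a shared one. Across genes its changes correlated with the mean changes of the other lines at r = 0.808, a description over 15399 genes that are not independent. Of the 181 rises 178, and of the 754 falls 743, had the same sign in that mean, and 163 and 660 had it in each of the 5 lines, as had 44.9% of all genes tested. The secretory lists had a median of -0.636 in MDA231 and -0.899 in the other lines, and the cytosolic and mitochondrial ones 0.284 in MDA231 and 0.329 in the other lines, differences that were not tested as sets.

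Only 5 genes differed between MDA231 and the other lines in limma's test of the difference itself, 3 upwards (0.0195%) and 2 downwards (0.013%), with 862 at an unadjusted p under 0.05. ESAM, an endothelial cell adhesion molecule, read 237.7, 217.8 and 203.0 in MDA231 pseudopods and 681.6, 292.5 and 457.5 in MDA231 cell bodies, a change of -0.99 ± 0.16, where the other lines ranged from -0.06 to 0.12. The difference of -1.03 had an adjusted p of 0.027. Whether ESAM is bright enough in the other lines to show a fall was not tested. NDUFAF1, an assembly factor of respiratory complex I, read 471.6, 448.6 and 724.6 in MDA231 pseudopods and 971.4, 952.0 and 854.4 in MDA231 cell bodies, a change of -0.77 ± 0.15 against a mean of 0.21 in the other lines (difference -0.98, adjusted p = 0.0189). These 2 fell in MDA231 by the fraction test as well.

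None of the 3 genes with an upward difference was called in MDA231 itself. CDH2 and GJC1 passed the filter on low values through other lines alone, and at the floor of the arrays their MDA231 change could only be small, so these 2 differences are set by the other lines and support nothing about MDA231. CDH2, which encodes N-cadherin, read 9.2, 19 and 6.5 in MDA231 pseudopods and 7.3, 6.5 and 7.1 in MDA231 cell bodies, while its change was 0.06 in DU145 and between -2.27 and -1.34 in the other 4 lines. GJC1, which encodes the gap junction protein connexin 45, stayed at 8.9 or less in MDA231, against changes between -1.55 and -0.66 in the other lines. PIGC, an enzyme of GPI anchor synthesis in the ER, was well expressed, with 567.2, 657.9 and 562.3 in MDA231 pseudopods and 708.6, 556.6 and 634.3 in MDA231 cell bodies. Its change was -0.08 ± 0.12 in MDA231 and -0.83 on average in the other lines (difference 0.75, adjusted p = 0.0279). With equal array medians the change of PIGC in MDA231 turned to 0.08. The test of the difference found 0 genes without pseudopod replicate 1 or 2 or without cell body replicate 1, and 5 upwards and 14 downwards without cell body replicate 2.

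**Figure D5:**
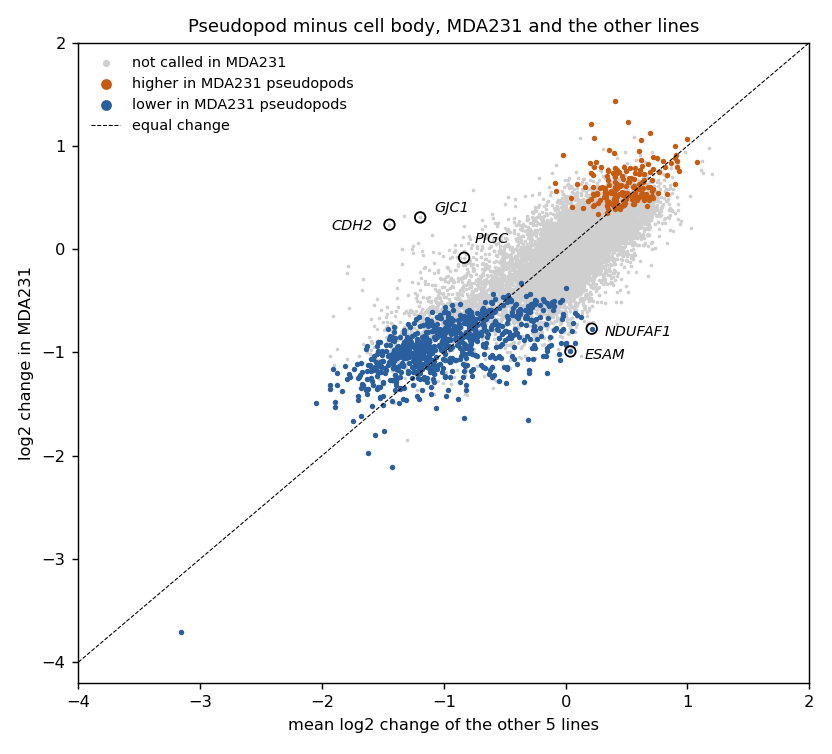
Each point is a gene, with the mean log2 change of the other 5 lines on the horizontal axis and the MDA231 change on the vertical axis, and the dashed line marks equal change. Most called genes lie at lower left or upper right, with the same sign in both, and the 5 circled genes (CDH2, GJC1, PIGC, NDUFAF1 and ESAM) are those whose change differed from the other lines.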

How the data were processed

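RNA of 36 samples (6 lines, 2 fractions, 3 arrays each) was read on arrays. The deposited values are linear intensity values, from 0 to 9883.2 over 54593 probe sets, 1 column per array. RMA and Partek are named, with no role, in the submitters' processing notes. RMA gives log2 values, whereas the mean of each deposited array after leaving out 2% at each end is 149.18 to 149.59, so arrays were scaled to a common mean by a program not given in the sources used here. Precision is limited by the 3 arrays of a group.

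From these, log2(intensity + 16) was computed. Of the probe sets, 41074 carry 1 gene symbol, 1798 several and 11721 none; symbols were updated through Entrez numbers in the RefSeq table of GRCh38.p14. Each gene is read from its brightest probe set, and 15399 of 19775 genes were tested, those reaching 24.4, the overall median, as a mean in any of the 12 groups. limma 3.58.1 in R 4.3.3 fitted 12 group means over all 36 arrays (24 residual degrees of freedom), with Benjamini-Hochberg adjustment over all genes tested. The difference from other lines is the MDA231 change minus the mean change of the other 5. The fit was tested on simulated data with independent arrays and 1 spread per gene for all 12 groups. The MDA231 arrays depart from both settings, so that test does not cover their p-values. Array medians were compared by exact permutation.

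Named genes are, among called genes with no overlap of arrays, the 12 with the highest and the 12 with the lowest change, the called differences from the other lines, up to 4 called members per list and direction (or the 1 largest change), and CDH1, EPCAM, KRT18, KRT19, VIM, CD44, RAB13, NET1, AHNAK, S100A11, RNA45SN5, MALAT1, ACTB and GAPDH. Further genes named beside them were chosen after their values were seen. Members and the 46 lists were chosen with earlier results of these data known, and no list was tested as a set. Alternatives changed the pseudocount, filter, scaling, probe sets, arrays in the fit, weights and blocks; treating the 2 divergent arrays as a block, or fitting the other 4 alone, was chosen after seeing the data. A planned description of protein features was not run. Promoter and microRNA sequences are from RefSeq. Figures were drawn in Python 3.11.15.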

Additional observations from a re-analysis of the deposited data

Results flagged for a closer look

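In 5 genes the change between pseudopods and cell bodies in MDA231 differed from the mean change of the other 5 lines by limma's test of that difference. The difference was 1.6837 for CDH2, 1.5017 for GJC1 and 0.751 for PIGC. CDH2 and GJC1 lay at 19 intensity units or less on all MDA231 arrays and were tested only because other lines express them, so their values are set by those lines and show no property of MDA231. For CDH2 the change was 0.06 in DU145, near that of MDA231 (0.24). PIGC was expressed in MDA231 and not called there, and its change was below 0 in each of the other 5 lines. The difference was -1.0296 for ESAM and -0.9842 for NDUFAF1, which both fell in MDA231 and whose changes in the other lines lay between -0.11 and 0.35. ESAM was lower in all 3 MDA231 pseudopod arrays than in all 3 cell body arrays, and so was NDUFAF1. Whether ESAM is bright enough in the other lines to show a fall was not tested.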

How the results depend on the processing

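Counts of genes called higher and lower in MDA231 pseudopods were 181 and 754. They were 283 and 867 with a pseudocount of 64, 533 and 364 with equal array medians, 329 and 794 after quantile normalization, 118 and 683 without shared probe sets, 0 and 0 with the 6 MDA231 arrays alone and 1850 and 2270 with array weights. With the 2 arrays high in CDH1 as a block they were 313 and 980, and with the other 4 arrays alone 32 and 688, both chosen after seeing the data. Leaving out 1 array gave 36 to 385 higher and 211 to 975 lower.

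Differences from the other lines, 3 upwards and 2 downwards, numbered 2 and 1 with a pseudocount of 4, 6 and 6 with 64, 1 and 2 with the filter on MDA231 groups, 4 and 1 with equal medians, 6 and 2 after quantile normalization, 197 and 182 with array weights, 2 and 8 without the 2 arrays and 7 and 5 with them as a block. Leaving out 1 array gave 0 to 5 and 0 to 14.

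Deviations of arrays with equal replicate numbers correlated at 0.69, -0.59 and -0.61, and those of pseudopod replicate 3 and cell body replicate 2 at 0.82. These 2 divergent arrays weigh on the negative values, so the correlations cannot show whether replicate numbers pair the arrays. A replicate block gave 49 higher, 407 lower and 0 and 0 differences.

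Signs turned for CDH1 (-0.0929 with a pseudocount of 64, -0.1032 as a mean of probe sets, -1.9055 to 2.1456 without 1 array), PIGC (0.0819 with equal medians, 8e-04 as a mean of probe sets, 0.3294 without shared probe sets, -0.1697 to 1e-04 without 1 array) and KLK3 (-0.0516 as a mean of probe sets, -0.0369 to 0.0543 without 1 array). They also turned for EPCAM (-1.633 to 0.2006 without 1 array), CD44 (0.0903 with equal medians), VIM (-0.7176 as a mean of probe sets), MRPL39 (-0.2573 as a mean and -0.9103 without shared probe sets), and, without shared probe sets, ERAP1 (0.0266), IDI1 (-0.8645) and KLF2 (-0.1816). The causes were not tested. Values at or below 16 intensity units, where 36.35% to 45.32% of probe sets of these arrays lie, limit what can be read of dim genes.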
